A study of Mus musculus with 12 samples.

Results

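Translation factor genes and the genes for cytosolic aminoacyl-tRNA synthetases were followed through 5 lists of chromatin immunoprecipitation (ChIP-seq) peaks. The members were chosen by gene symbol from the RefSeq annotation of mm10. No measured value enters that rule, but members and classes were chosen with earlier results of these data known. The symbol pattern matched 91 protein-coding genes, and 16 were left out because they encode kinases, methyltransferases, binding proteins or a namesake by domain. This left 75 members of 21887 protein-coding genes, namely 47 initiation factor genes, 11 genes for elongation factors, release factors and Tpt1, and 17 synthetase genes. The classes follow the symbol and not each protein's function, so Eif5a counts with initiation and Eef1e1 with elongation. The pattern takes in most cytosolic synthetases, and Gars and Kars also give rise to mitochondrial enzymes. The 75 genes lie on 21 chromosomes and have a median length of 17372 bp, against 17169 bp for all protein-coding genes.

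The study mapped MOF, the histone H4 lysine acetyltransferase encoded by Kat8, in bone marrow cells of C57BL/6 mice, with marrow pooled from several bones. The 4 MOF libraries came from Mof -/+ haematopoietic stem cells (HSC), wild-type HSC, Mof -/+ megakaryocyte-erythroid progenitors (MEP) and wild-type MEP. HSC were sorted by flow cytometry as lineage-negative, Sca-1-positive, Kit-positive cells without CD34 and Flt3 (15000 cells), and MEP as lineage-negative, Kit-positive cells without Sca-1, CD34, IL-7 receptor and CD16/32 (30000 cells). The fifth library was GATA1, an erythroid transcription factor, in wild-type HPC7, a haematopoietic progenitor line grown with stem cell factor. The labels do not say how many animals were pooled or how the Mof allele was made, and a peak list cannot check a cell type against its marker genes.

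The lists held 338 peaks in heterozygous HSC, 1876 in wild-type HSC, 64 in heterozygous MEP, 898 in wild-type MEP and 477 for GATA1. Each group has 1 library, so none of the differences below has a replicate check and none was tested. Read numbers are unknown, and how many peaks a list holds depends on depth and calling settings as well as on binding.

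Protein synthesis begins when initiation factors bring the initiator tRNA and the small ribosomal subunit to the start codon of an mRNA. Elongation factors then deliver each charged tRNA and move the ribosome along, release factors free the finished chain, and aminoacyl-tRNA synthetases join each amino acid to its tRNA. Haematopoietic stem cells are known for a low rate of protein synthesis relative to the progenitors they give rise to. MOF is known from other cell types to sit at promoters of widely expressed genes within the NSL complex.

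A member was counted in a list if the midpoint of at least 1 peak lay within 5 kb of its annotated start or end. By this count, 11 of 75 members had a MOF peak in wild-type HSC (14.7%, 95% Wilson interval 8.39 to 24.4), against 8.52% of all protein-coding genes. In wild-type MEP 8 of 75 members had 1 or more (10.7%, 5.50 to 19.7), against 3.40% of all genes. The intervals cover counting error only. Eef1a1 and Eif1 were in both wild-type lists (2.67%), against 1.52% of all genes. The lists together covered 17 members (22.7%), against 10.4% of all genes, and 58 members were in neither.

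The summits with the DNA around them show what lay under the peaks at gene starts. Of the 23 member summits of the wild-type lists, 7 fell inside the RefSeq promoter letters of their gene, which are held for 54 of the 75 members and run from 250 bases before the start to 50 after it. Each stretch below is read 5′ to 3′ on the gene's own strand from GRCm38.p6, with up to 60 bases on each side of the summit and no more than 20 from the start on. Capitals mark the summit and 5 bases on each side of it.
Tpt1, wild-type HSC, chr14:75845136-75845256, plus strand: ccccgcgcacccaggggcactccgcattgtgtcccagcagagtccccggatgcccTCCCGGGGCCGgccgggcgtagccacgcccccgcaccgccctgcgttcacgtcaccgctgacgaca
Gspt1, wild-type HSC, chr16:11254339-11254459, minus strand: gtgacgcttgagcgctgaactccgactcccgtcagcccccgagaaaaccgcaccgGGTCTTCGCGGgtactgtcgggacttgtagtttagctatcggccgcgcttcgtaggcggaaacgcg
Eif4b, wild-type HSC, chr15:102073697-102073792, plus strand: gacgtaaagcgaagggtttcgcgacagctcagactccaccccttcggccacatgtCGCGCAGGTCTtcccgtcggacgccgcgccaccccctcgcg
Eif2b4, wild-type HSC, chr5:31193120-31193228, minus strand: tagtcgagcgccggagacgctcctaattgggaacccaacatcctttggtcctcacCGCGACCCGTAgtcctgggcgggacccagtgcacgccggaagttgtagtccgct
Eif4a3, wild-type MEP, chr11:119300171-119300291, minus strand: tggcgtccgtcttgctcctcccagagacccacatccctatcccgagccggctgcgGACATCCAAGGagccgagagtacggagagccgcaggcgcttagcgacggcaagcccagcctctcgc
Eif4a1, wild-type MEP, chr11:69672404-69672506, minus strand: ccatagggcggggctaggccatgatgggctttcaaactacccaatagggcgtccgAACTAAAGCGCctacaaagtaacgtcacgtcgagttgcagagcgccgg
Eif3d, wild-type MEP, chr15:77970951-77971071, minus strand: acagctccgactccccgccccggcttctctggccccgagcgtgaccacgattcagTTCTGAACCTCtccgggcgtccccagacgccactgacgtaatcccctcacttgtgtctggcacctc
The stretches are rich in G and C, with 75.2% at Tpt1, 67.7% at Eif4b, 66.9% at Eif4a3 and 57.3% at Eif4a1, the lowest of the 7. They hold between 9 and 17 CpG pairs each, with the most at Gspt1. The capitals mark the position that the peak caller gave and not a bound motif.

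Over all protein-coding genes, the share was 8.52% for the wild-type HSC list and 3.40% for the wild-type MEP list. The 11 genes for elongation, release and Tpt1 included 5 in the HSC list (45.5%, 21.3 to 72.0) and 1 in the MEP list (9.09%, 1.62 to 37.7). The 5 were Eef1a1, Eef1b2, Eef2, Gspt1 and Tpt1, and only Eef1a1 of this class was also in the MEP list. The 47 initiation factor genes included 6 in the HSC list and 6 in the MEP list (12.8%, 5.98 to 25.2, each time), with Eif1 as the single gene in common. The intervals cover counting error only. The classes were chosen with earlier results of these data known, and no class was tested against the share of all genes. The 17 synthetase genes gave 0 in the HSC list and 1 in the MEP list (5.88%, 1.05 to 27.0).

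**Figure D1:**
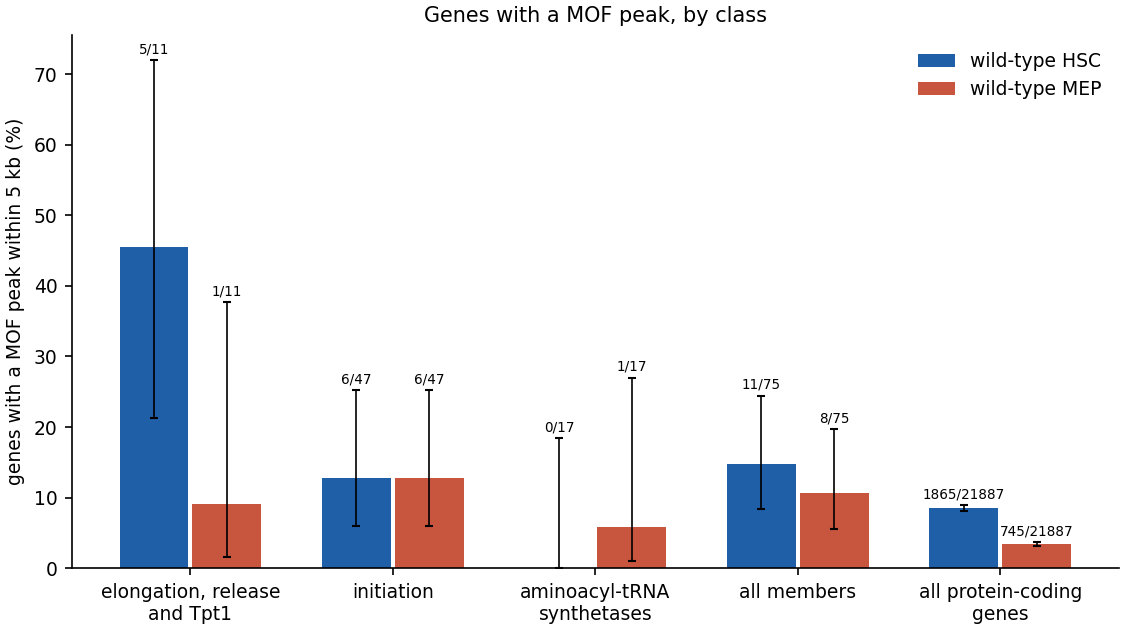
Share of genes in percent with at least 1 MOF peak midpoint within 5 kb of their start or end, for wild-type HSC (left bar of each pair) and wild-type MEP (right bar), in each class of members, in all members and in all protein-coding genes. Lines are 95% Wilson intervals and the fractions give genes with a peak of all genes; the elongation, release and Tpt1 class reaches 5 of 11 in HSC and 1 of 11 in MEP, and the synthetases 0 and 1 of 17.

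Column 5 of the wild-type lists is the authors' −log10 value per peak, read here as a −log10 q-value. It describes and ranks peaks within its own list. The 12 member peaks of wild-type HSC had a median value of 5.53, between 2.14 and 20.3, beside 5.27 for all 1876 peaks of that list. The 11 member peaks of wild-type MEP had a median of 6.15, between 1.72 and 10.8, beside 5.61 for all 898 peaks. In each list 6 of the member peaks were above the list's median, and the members ran from rank 21 to rank 1765 of 1876 in HSC and from 167 to 890 of 898 in MEP.

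**Figure D2:**
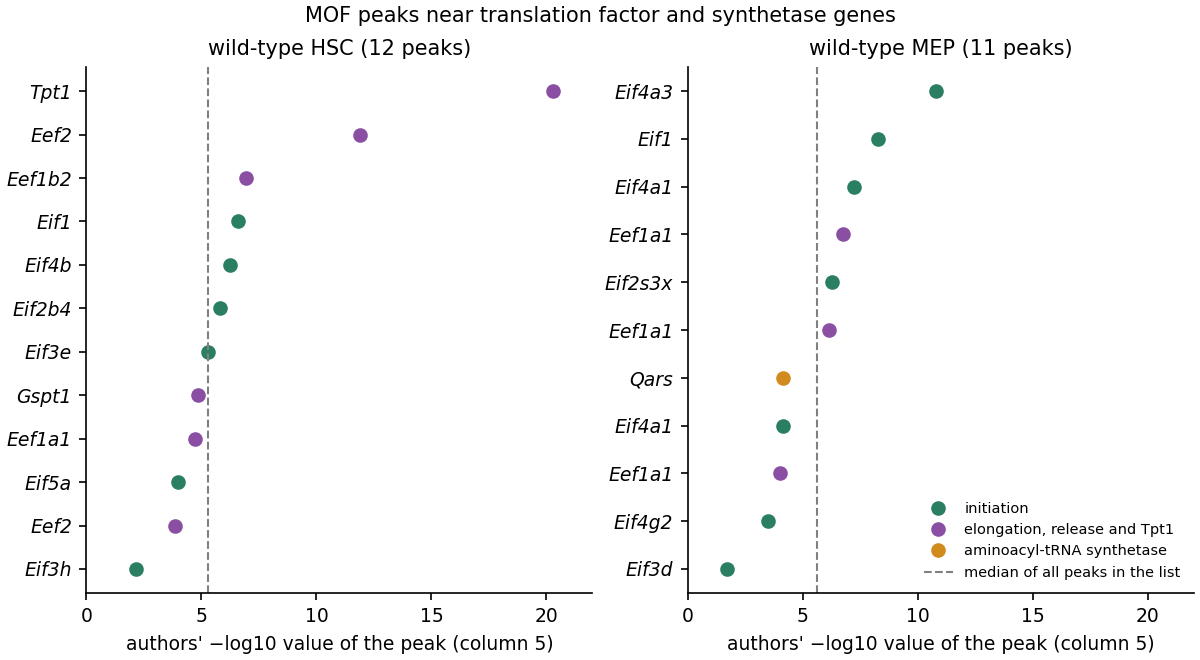
The authors' −log10 value (column 5, horizontal axis) of each MOF peak within 5 kb of a member, in wild-type HSC (left, 12 peaks) and wild-type MEP (right, 11 peaks), with colours for the 3 classes and a dashed line at the median of all peaks in the list (5.27 and 5.61). Tpt1 (20.3) and Eef2 (11.9) stand highest in HSC and Eif4a3 (10.8) in MEP.

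Elongation factors. Eef1a1 encodes eEF1A, which carries charged tRNAs to the ribosome. The gene, on chromosome 9 from 78478453 to 78481724 and read on the minus strand, was 1 of 2 members found in both wild-type lists, but at different places. In wild-type HSC the summit lay inside the gene, 249 bp from its start (position 78481475, column 5 of 4.71, rank 1099 of 1876). In wild-type MEP there were 3 summits, all beyond the other end of the gene, at 492, 1238 and 1776 bp from it (positions 78477961, 78477215 and 78476677, column 5 of 4.02, 6.15 and 6.74). The HSC summit was 3514 bp from the nearest MEP summit. The next coding gene on the side of the MEP summits, Mto1, was 2512 to 3796 bp from them, so Eef1a1 was the nearest gene of all 3. A gene with 3 or more peaks in the window was uncommon in wild-type MEP, at 9 of the 745 genes with a peak (1.21%).

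Eef1b2 encodes a subunit of the exchange factor that recharges eEF1A with GTP. Its single summit, in wild-type HSC, lay 722 bp beyond the end of the gene (chromosome 1, position 63181208, column 5 of 6.92, rank 575 of 1876), and its own start was 4377 bp away. An end of Gpr1 was 1363 bp from that summit and an end of Ndufs1 4386 bp, so Eef1b2 was the nearest of the 3 genes. Eef2 encodes the factor that moves the ribosome by a codon. It had 2 summits in wild-type HSC, the higher of them 53 bp inside the start (chromosome 10, position 81176684, column 5 of 11.9, rank 110 of 1876). The other lay 1407 bp before the start (position 81175224, 3.85). No MEP summit was nearer than 90140 bp. The 4 remaining Eef1 genes, Eef1a2, Eef1d, Eef1e1 and Eef1g, had no peak in any list.

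Release factors and Tpt1. Gspt1 encodes the GTPase eRF3a, which works with the stop codon reader eRF1. Its HSC summit lay 74 bp before the start (position 11254399, column 5 of 4.83, rank 1057 of 1876), in the stretch printed above, within the annotated hairpin gene Mir1945, and 763 bp from an end of the coding gene LOC115488671. Etf1, which encodes eRF1, and Gspt2 had no peak. Tpt1 encodes the translationally controlled tumour protein, an abundant protein of growing cells whose own mRNA is under translational control. It had the highest column 5 value of the members in the wild-type HSC list, with a summit 60 bp before its start (position 75845196, column 5 of 20.3, rank 21 of 1876). An end of the long noncoding RNA gene Gm4285 was 232 bp from it, and the nearest MEP summit 560913 bp.

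Initiation factors. Eif1 encodes a small factor that guards the choice of start codon. It was the only member whose peaks overlapped between the wild-type lists once 150 bp were added to either side of every summit. The HSC summit lay 85 bp inside the start (chromosome 11, position 100320034, column 5 of 6.59, rank 637 of 1876) and the MEP summit 280 bp inside it (position 100320229, 8.25, rank 232 of 898), 195 bp apart. In both lists the summit was inside the first part of a gene that is 2151 bp long.

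**Figure D3:**
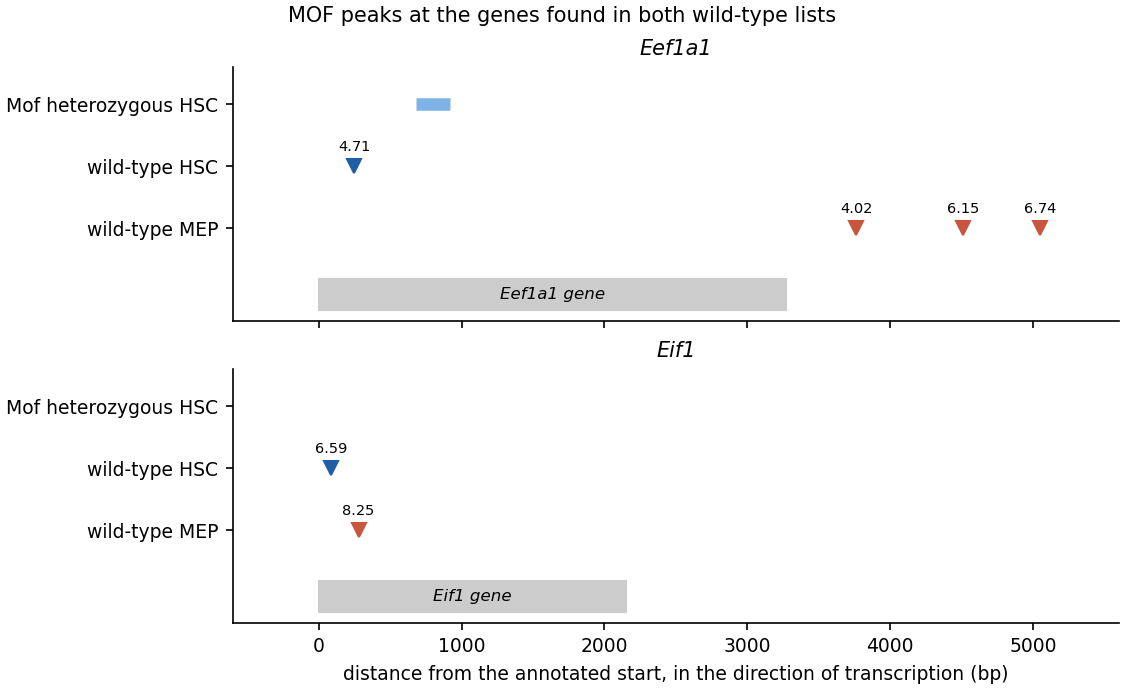
Position of MOF peaks at Eef1a1 and Eif1, the members found in both wild-type lists, as distance in bp from the annotated start in the direction of transcription (horizontal axis; grey bars are the genes). Triangles are wild-type summits with the authors' −log10 value above them and the thick bar is the heterozygous HSC interval; at Eef1a1 the HSC summit lies 249 bp past the start and the 3 MEP summits beyond the gene's end, while at Eif1 the HSC and MEP summits are 195 bp apart.

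A further 5 initiation factor genes were in wild-type HSC and not in wild-type MEP (10.6% of 47, beside 7% of all protein-coding genes). Eif4b encodes a cofactor of the eIF4A helicase, and its summit lay 16 bp before the start (column 5 of 6.23, rank 722 of 1876). Eif2b4 encodes a subunit of eIF2B, the exchange factor for eIF2 that the integrated stress response acts on. Its summit lay 29 bp before the start (5.79, rank 813) and 94 bp from an end of the neighbouring gene Snx17. Eif3e and Eif3h encode subunits of eIF3, the large scaffold of initiation. Their summits lay 35 bp (chromosome 15, position 43282701, 5.27) and 11 bp (position 51865450, 2.14) inside the higher-coordinate end of each gene. Eif3h had the lowest value of the HSC members, at rank 1765 of 1876. Eif5a encodes a factor that helps the ribosome join difficult peptide bonds, and its summit lay 220 bp inside the outermost listed start (position 69921738, 3.96). All 5 summits were within 220 bp of the gene end they belonged to.

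Another 5 initiation factor genes were in wild-type MEP and not in wild-type HSC (10.6% of 47, beside 1.88% of all protein-coding genes). Of these, 3 belong to the eIF4 group, set by symbol, which includes the factors that bind the mRNA cap and unwind the leader. That is 3 of 13 eIF4 genes in MEP (23.1%, 8.18 to 50.3), beside 3.40% of all genes. In HSC it was 1 of 13 (7.69%), beside 8.52%, and the difference was not tested. In MEP, eIF1 with eIF1A had 1 of 4 genes (25%) and the eIF2 group 1 of 6 (16.7%). The eIF3 group had 1 of 14 (7.14%), and eIF2B, eIF5 and eIF6 had 0 of 5, 0 of 4 and 0 of 1. Eif4a3 encodes a helicase of the eIF4A family that is a core part of the exon junction complex. It had the highest value of the MEP members, 188 bp before its start (position 119300231, column 5 of 10.8, rank 167 of 898). Eif4a1, the main initiation helicase, had a summit 23 bp before its start (position 69672446, 7.22, rank 287), with an end of Senp3 664 bp away. A second MEP summit counted for Eif4a1, 4388 bp from its end, lay 101 bp from Mpdu1 and belongs to that neighbour by distance. Eif4g2 encodes a relative of the eIF4G scaffold, with a summit 186 bp outside the higher-coordinate end of the gene (chromosome 7, position 111083216, 3.48, rank 758 of 898).

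Eif2s3x, on the X chromosome, encodes the gamma subunit of eIF2, which carries the initiator tRNA. Its MEP summit lay 398 bp before the start (position 94213049, column 5 of 6.28, rank 369 of 898), and its Y-linked copy Eif2s3y had no peak. Eif3d encodes the cap-contacting subunit of eIF3. Its MEP summit lay 187 bp before the start (position 77971011) and had a value of 1.72, rank 890 of 898, among the lowest of that list. Of the 14 eIF3 genes, Eif3e and Eif3h were in HSC (14.3%) and Eif3d in MEP (7.14%), beside 8.52% and 3.40% of all genes.

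Beside 88.9% of all protein-coding genes, 35 of the 47 initiation factor genes (74.5%) had no peak in any list. They were Eif1a, Eif1ax and Eif1b of the start codon factors, Eif2a, Eif2d, Eif2s2 and Eif2s3y of the eIF2 group, and Eif2b1, Eif2b2, Eif2b3 and Eif2b5 of eIF2B. Of eIF3 they were Eif3a, Eif3b, Eif3c, Eif3f, Eif3g, Eif3i, Eif3j1, Eif3j2, Eif3k, Eif3l and Eif3m. Of the eIF4 group they were Eif4a2, Eif4a3l1, Eif4e, Eif4e1b, Eif4e2, Eif4e3, Eif4g1, Eif4g3 and Eif4h, and the rest were Eif5, Eif5a2, Eif5b and Eif6. The genes of the cap-binding protein eIF4E and the main scaffold eIF4G1 thus had no listed MOF peak, and neither had Eif4a2 and Eif4h. In the eIF4 group 9 of 13 genes had none (69.2%), beside 88.9% of all protein-coding genes.

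Aminoacyl-tRNA synthetases. The 0 of 17 genes in HSC and 1 of 17 in MEP stood beside 8.52% and 3.40% of all protein-coding genes, and with 17 genes such counts are near that background. The gene with a peak was Qars, the glutaminyl-tRNA synthetase gene, in wild-type MEP, where the summit lay 1056 bp beyond the end of Qars (chromosome 9, position 108516997, column 5 of 4.15, rank 665 of 898). That summit was 15 bp from Qrich1 and 8992 bp from the start of Qars, so no synthetase gene was the nearest gene of a peak within the 5 kb window. The other 16, which had no peak in any list, were Aars, Cars, Dars, Gars, Hars, Iars, Kars, Lars, Mars1, Nars, Rars, Sars, Tars, Vars, Wars and Yars.

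In wild-type HSC 10 of the 12 member peaks lay within 300 bp of the member's nearer end and 11 within 1 kb, with a median of 67 bp, beside 134 bp for all 1368 peaks within 5 kb of a protein-coding gene. In wild-type MEP 5 of 11 lay within 300 bp and 7 within 1 kb, with a median of 398 bp, beside 186 bp for all 525 such peaks. The all-peak medians are distances to the nearest gene. On that measure the member peaks of MEP had a median of 188 bp, close to the 186 bp of the list, and those of HSC kept 67 bp. The 4 MEP member peaks beyond 1 kb were 2 of the Eef1a1 summits and those nearer to Mpdu1 and Qrich1. Where the promoter table gives a strand, 9 of 10 member peaks in HSC were at the start rather than the end of the gene. The share was 79.1% over all peak and gene pairs in that list and 91.9% with the nearest gene only. The member was the nearest gene of all 12 HSC member peaks, so 91.9% is the like measure, and 9 of 10 is close to it. In MEP 5 of 10 were at the start, beside 75.2% of all pairs and 87.5% with the nearest gene only. The rest were the Eef1a1 summits and the peaks nearer to Mpdu1 and Qrich1. The member was the nearest gene of only 9 of the 11 MEP member peaks, so 87.5% is not the like measure for these 10. The strand was not used for Eif3e, Eif3h and Eif4g2, which the table does not hold.

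**Figure D4:**
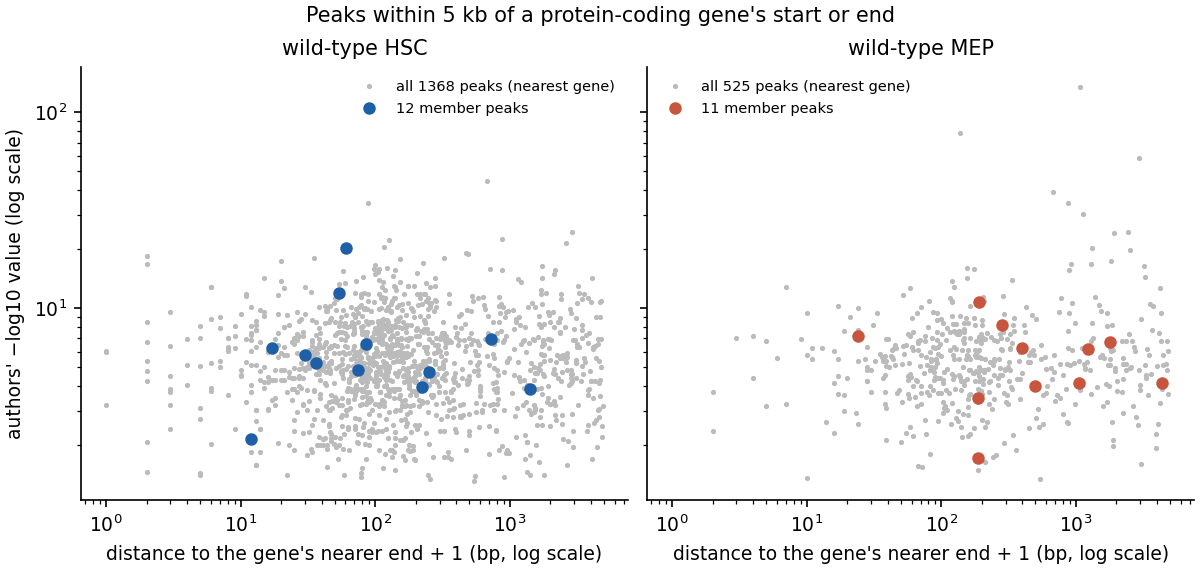
Distance of each peak to the nearer end of a gene plus 1 bp (horizontal, log scale) against the authors' −log10 value (vertical, log scale) for peaks within 5 kb of a protein-coding gene in wild-type HSC (left) and wild-type MEP (right). Grey points are all 1368 and 525 peaks with the distance to their nearest gene, and coloured points are the 12 and 11 member peaks with the distance to the member; most HSC member peaks sit below 300 bp, and the MEP ones spread up to 4388 bp.

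The member peak farthest inside it was the second Eif4a1 summit, at 4388 bp. The nearest outside it in wild-type HSC was 6088 bp from Eif3g, with 4.19 in column 5, and lay 86 bp from Ppan. Between 5 and 20 kb there were also HSC summits 17381 bp from Eif2b1 and 18994 bp from Vars, each under 60 bp from another gene (Ddx55 and Lsm2), and a heterozygous HSC interval 6580 bp from Eif3i. In wild-type MEP there was no further peak up to 20 kb. No member held a peak deeper inside its body.

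The shared Eef1a1 and Eif1 are 2 of 11 HSC members and 2 of 8 MEP members. Over all genes the lists shared 333, which is 17.9% of the HSC genes and 44.7% of the MEP genes. By peak, 1 of 12 HSC member peaks overlapped a MEP peak, beside 14% of all HSC peaks within 5 kb of a gene, and 1 of 11 MEP member peaks overlapped an HSC peak, beside 36.6%. The nearest HSC summit to the Eif4a1, Eif4a3 and Eif2s3x summits of MEP was 39681, 54722 and 153937 bp away.

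Heterozygous lists. In Mof heterozygous HSC 2 of 75 members had a peak (2.67%, 0.734 to 9.21), against 0.567% of all genes, and both peaks ranked in the lower part of their list. At Eef1a1 the heterozygous interval ran from 78480802 to 78481042, with a score of 32 in column 5, a −log10 q of 3.23, 4.66-fold enrichment and rank 299 of 338. Its midpoint was 802 bp inside the start and 553 bp from the wild-type HSC summit, and the peaks did not overlap. The other was Eif2s1, which encodes the alpha subunit of eIF2 that stress kinases phosphorylate. There the interval ran from 78861690 to 78861889 on chromosome 12, before the start of the gene, with a score of 59, a −log10 q of 5.94, 5.55-fold enrichment and rank 216 of 338. Its midpoint was nearer to Atp6v1d. Eif2s1 had no wild-type peak.

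The highest wild-type member peaks, at Tpt1 and Eef2 in HSC and at Eif4a3 in MEP, were not in the heterozygous lists. Eef1a1 was in both HSC genotypes, which is 1 of 2 heterozygous and 1 of 11 wild-type HSC members. Over all genes 64 were in both, which is 51.6% of the heterozygous and 3.43% of the wild-type HSC genes. In heterozygous MEP 0 of 75 members had a peak, against 0.0366% of all genes, that is 8 genes in a list of 64 peaks. A list this short says little about the absence of any gene.

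GATA1 in HPC7. No member had a GATA1 interval within 5 kb (0 of 75), against 0.603% of all protein-coding genes, and the nearest GATA1 interval to a wild-type member peak was 87155 bp away, from the Eif3h summit. No member peak of the MOF lists lay in a region found in 4 or 5 of the 5 lists. Of all peaks, near a gene or not, 44 of 1876 in wild-type HSC (2.35%) and 79 of 898 in wild-type MEP (8.8%) did. With 12 and 11 member peaks, 0 is near those shares. Apart from the overlapping pair at Eif1, each member peak occurred in its own list alone.

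Genes that act on these factors were counted in the same way. They came from 4 lists of related genes, chosen with earlier results of these data known, with 49 genes in all. In wild-type HSC 8 had a peak (16.3%) and in wild-type MEP 5 (10.2%), shares beside 8.52% and 3.40% of all genes, and none of the 49 was in a heterozygous list or the GATA1 list. Among 16 other initiation, recycling and poly(A)-binding factors, HSC had Pabpc1, the main poly(A)-binding protein gene (164 bp, column 5 of 8.14), Denr, a reinitiation factor (1 bp, 6.70), Paip2, a repressor of poly(A)-binding protein (45 bp, 3.00), and Gtpbp1, whose peak lay nearer to Josd1 (2.60). MEP had Dhx29, a helicase of scanning ribosomes, whose peak lay nearer to Mtrex (6.12).

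Among 12 genes of nutrient and stress signalling to translation, HSC had Mknk2, a kinase of eIF4E, with 2 summits (263 and 1924 bp before the start, 7.49 and 3.46). It also had Ppp1r15a and Ppp1r15b, which direct the removal of phosphate from the eIF2 alpha subunit (6.20 and 6.53). The Ppp1r15a summit lay nearer to Plekha4. MEP had Atf4, the transcription factor made when eIF2 is phosphorylated (66 bp, 6.63), and Rps6kb1, a kinase downstream of mTOR, whose summit was nearer to Tubd1 (5.59).

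Of 14 regulators of initiation and elongation factors, 0 were in HSC and 2 in MEP, namely Eef2kmt, a methyltransferase of eEF2 (10 bp, 6.29), and Eif2ak1, the haem-regulated kinase of eIF2 that limits globin synthesis in erythroid cells. The Eif2ak1 summit lay 1298 bp inside the gene (3.62). Of 7 synthetase subunits and scaffolds outside the name pattern, Sepsecs, which makes selenocysteine on its tRNA, was in HSC (73 bp, 2.27), and none was in MEP.

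The promoter letters of the members were rich in CpG whether or not a peak was listed. The 300 bases of the 9 HSC members in the promoter table had a median of 28 CpG pairs and 64.7% G and C, those of the 7 MEP members 23 and 60.7%, and those of the 40 members in neither wild-type list 21 and 58.8%. All genes of the table with an HSC peak had 23 and 62.3%, those with a MEP peak 21 and 60.3%, and all 17492 protein-coding genes listed there had 13 and 56.3%. Of short motifs searched on both strands, the GC box GGGCGG was in 6 of 9, 7 of 7 and 28 of 40. It was in 66.9% of the promoters of all genes with an HSC peak, 63.2% with a MEP peak and 46.3% of all promoters. Here and below, the last share covers all promoters, also those of genes with a peak, unlike the 40 members. CCGGAA, the core that ETS factors bind, was in 4 of 9 (Eef1b2, Eif2b4, Gspt1 and Tpt1), 1 of 7 (Eif3d) and 18 of 40, beside 34.1%, 29.8% and 19.1% in the same order. CCAAT was in 2 of 9, 3 of 7 and 15 of 40, beside 37.2%, 39.4% and 39.2%. TATAAA was in 1 of 9 (Eef2), 0 of 7 and 4 of 40, beside 7.17%, 9.72% and 13.3%.

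The GATA motif letters AGATAA were in 0 of 9, 0 of 7 and 2 of 40 of these promoters, beside 5.71%, 5.67% and 9.94%. ATGGCGG was in 2 of 9 (Eef1b2 and Eef2), 0 of 7 and 3 of 40, beside 9.97%, 8.59% and 5.44%. Many mRNAs of the translation machinery begin with a run of pyrimidines. A C followed by at least 4 more C or T, beginning within 5 bases of the listed start on the gene's strand, was in 1 of 9 HSC members (Eef1a1), 3 of 7 MEP members (Eef1a1, Eif2s3x and Qars) and 9 of 40 others, beside 21.3%, 19.8% and 18.8%. That count depends on how exactly the listed starts are placed. Matches of different motifs can share at most 2 letters. The motifs describe the letters of these windows and were not tested against the peaks.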

How the data were processed

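Peak lists of 5 of the 12 samples were used. The 6 inputs and the H4K16ac library, 7 samples, were not analysed here. Per the submitters' processing notes, the build was mm10 and the tools included MACS2, deepTools and Bowtie2 2.3.0.1. The sources used here do not give tool settings, the handling of duplicate and multiply mapping reads, or which input was the background.

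The wild-type MOF lists that the authors deposited hold 1 bp summits with a −log10 value per peak (column 5), whose minimum was 1.31 in HSC and 1.35 in MEP, and it was read as a −log10 q-value, although no header states it. The heterozygous lists that the authors deposited hold intervals with a score in column 5, a fold enrichment, and −log10 p-values and q-values. In them the score equals 10 times the −log10 q without decimals in 338 of 338 and 64 of 64 peaks. The GATA1 list the authors deposited gives only interval starts and ends. All values per peak are the authors'.

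Genes came from RefSeq GRCm38.p6, the same build, limited to chromosomes 1 to 19, X and Y. Strand and starts came from the RefSeq promoter table. Midpoints decided distances, and summits extended by 150 bp on each side (301 bp) or intervals as deposited decided overlaps of at least 1 bp. A peak counts for every gene within the window, and neighbouring genes share peaks. No test was run, since each group has 1 library. The assignment of peaks to genes was checked on planted positions. The members, classes, related genes and alternatives were chosen with earlier results of these data known. Every member with a peak in any list is named, as is every related gene with one. Alternatives were windows of 1 and 20 kb, the nearest gene only, peaks above the list's median, regions in 4 or 5 lists left out, the whole symbol pattern, and midpoints within 1 kb for overlaps. Work was done in Python 3.11.15 with pandas 2.3.3, NumPy 2.4.6 and SciPy 1.17.1.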

Additional observations from a re-analysis of the deposited data

How the results depend on the processing

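Of 88 alternative values for 18 counts, 74 stayed within 1.5 times the reported count. With peaks above their list's median value only, members with a peak numbered 6 in wild-type HSC (beside 4.35% of all genes), 5 in wild-type MEP (1.54%), 0 in heterozygous HSC and 1 in both wild-type lists. There were then 5 in wild-type HSC alone, with 3 of the elongation, release and Tpt1 class and 3 initiation factors in HSC, and 0 synthetases in MEP. A window of 1 kb left 0 synthetase genes in wild-type MEP, and so did counting each peak for its nearest gene only, which left 1 member in heterozygous HSC. A window of 20 kb added 1 synthetase gene, Vars, in wild-type HSC. With every symbol of the pattern, the elongation class held 2 genes in wild-type MEP, through Eef2kmt. With midpoints within 1 kb in place of overlap, 1 wild-type HSC member peak, at Eef1a1, was shared with heterozygous HSC, against 0. These moves follow from which peaks or genes each setting admits. Leaving out peaks of regions in 4 or 5 lists changed none of the counts. No paired analysis was possible because each group has 1 library. Read depth is unknown, so a gene without a listed peak is one not called at an unknown depth.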

Other observations

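Members with a wild-type peak were spread unevenly over the chromosomes, and chromosomes 11 and 15 were picked out after their values were seen, so this was not tested. On chromosome 11, 4 of 5 members had a wild-type MOF peak (Eif1, Eif5a, Eif4a1 and Eif4a3), and on chromosome 15, 4 of 7 (Eif3e, Eif3h, Eif4b and Eif3d). These chromosomes together gave 8 of 12 members, against 9 of 63 elsewhere. Of all protein-coding genes, 15% on chromosomes 11 and 15 had a wild-type peak, against 9.85% elsewhere. The 6 members on chromosome 18, Etf1, Hars, Lars, Eif3j2, Eif1a and Nars, had none, beside 8.61% of all genes there. With 6 genes, 0 is near that share. Other chromosomes also had none, among them chromosome 2 (0 of 5 members) and chromosome 12 (0 of 4).

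Member peaks that also lay within 5 kb of another protein-coding gene were 4 of the 12 member peaks in wild-type HSC and 6 of the 11 in wild-type MEP, beside 38.2% and 43.6% of all peaks within 5 kb of a protein-coding gene. They were the peaks at Eef1b2, Eif2b4, Eif5a and Gspt1 in HSC, and the 3 at Eef1a1, the 2 at Eif4a1 and that at Qars in MEP.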
